A study of Oryctolagus cuniculus with 8 samples.

Results

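The genes described here encode the actomyosin and contractile machinery, measured by RNA sequencing in stromal cells grown from 2 fat depots of the rabbit. They were taken from the deposited table by gene symbol: actins, α-actinins, myosin heavy and light chains and their kinases, tropomyosins, transgelins, leiomodins, filamins, PDZ and LIM domain proteins, troponins, calsequestrins, 2 intermediate filament genes (DES and VIM), the actin binders CALD1, SMTN and SYNPO2, and 6 transcription regulators. This gave 58 of the 20586 genes, with 57 symbols, since MYH4 is carried by 2 identifiers. Several genes that the rule would match had no entry under their symbols and were not analysed here. Among them were ACTB, TAGLN, TPM3, MYLK, FLNA, MYL6, MYL12B, MYH14, PDLIM2, PDLIM7 and the calponins CNN1, CNN2 and CNN3, so that some families are partial. IPFSCs were passage 1 cells from the fat pad below the kneecap (infrapatellar fat pad), and ScASCs were passage 1 cells from the inguinal subcutaneous fat. Both came from 4 male New Zealand white rabbits of 4 months and were expanded on plastic in medium with fetal serum, with no other treatment. There was 1 library per cell type and rabbit, so that n = 4 in each group, and libraries of the same number were taken as 1 rabbit. Within a cell type, differences between rabbits cannot be told from those between cultures or libraries. The cells were not sorted, and in such bulk samples fewer cells of a type and less RNA per cell cannot be told apart.

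Contractile force in non-muscle and smooth muscle cells is made by myosin II, which slides on actin filaments once its regulatory light chain is phosphorylated. Tropomyosins, caldesmon and calponins line the filaments and set how myosin reaches them, while α-actinins and filamins cross-link them into stress fibres, the contractile bundles of fibroblasts on stiff plastic. Many of these genes are controlled by the transcription factor SRF with its coactivators, MRTFA and MRTFB, which are held in the cytoplasm by free actin, and myocardin (MYOCD), which belongs to smooth and cardiac muscle. Fibroblasts that take up α smooth muscle actin (ACTA2) are called myofibroblasts.

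Levels are given as RPKM, reads scaled to transcript length and to the mapped reads of the library, which can be compared between genes. Read totals are unknown. The relative depth, read from the step that single reads leave in low RPKM values, lay between 0.825 and 1.00 of the deepest library. All 8 stromal markers in the table were tested, of which CD44 rose (limma adjusted p = 0.0173) and the other 7 did not pass, and their levels ran from THY1, at 3.01 to 21.2 RPKM over the libraries, to COL1A1 at 2483 ± 437 RPKM in IPFSCs, against 3600.2 ± 383 RPKM in ScASCs (SD, n = 4). Taking the rabbit as a block, LUM was higher as well (limma adjusted p = 0.00902). NT5E, COL1A1 and COL1A2 were then lower (limma adjusted p = 0.0217, 0.0328 and 0.0449). All 5 endothelial markers (CDH5, KDR, PECAM1, TEK, VWF) and all 8 skeletal muscle markers in the table (MYF5 and MYF6 at 0 among them) were below an RPKM of 1 in every library. Of the blood and macrophage markers, the leukocyte gene PTPRC was at 0, and AIF1, CD14 and CSF1R averaged below 1 RPKM in both cell types. CD68 of the same list lay between 10.6 and 25.9 RPKM over the libraries. The 7 pericyte and vascular smooth muscle markers summed to 129 to 210 RPKM in IPFSCs and 104 to 217 RPKM in ScASCs. Of their 6 tested genes, MCAM and CSPG4 rose in IPFSCs, while the other 4 did not pass (with the rabbit as a block PDGFRB was lower, limma adjusted p = 0.0301), and RGS5 was below 1 in every library. Of the synovial lining markers, CLIC5 alone was in the table, at 0.237 to 0.436 RPKM in IPFSCs and 0 in all ScASC libraries. Its level stayed below the limit for testing, and in limma with no filter on low RPKM it had an adjusted p of 0.00526. The part of such cells in the results was not tested.

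Among the contractile genes, MYOCD and CASQ2, a calcium-binding protein of the muscle calcium store, fell in IPFSCs, and no member rose. Of the 58 members, 32 were tested, as their RPKM averaged above 1 in 1 cell type or both, and of these 0 rose, 2 fell and 30 missed the threshold of an adjusted p under 0.05 in limma's moderated test on log2(RPKM + 1). Of all 11294 genes tested, 2.67% rose and 2.31% fell. In either direction 6.25% of the tested members were called, against 4.98% of all tested genes. At an unadjusted p under 0.05 limma had 3 members higher and 6 lower, 9.38% and 18.8% of those tested, against 8.65% and 7.85% of all tested genes. The median log2 fold change of the tested members, IPFSCs over ScASCs, was 0.05, against −0.00 over all tested genes. With the rabbit as a block in limma, 4 members passed (12.5%), as LMOD1 was then higher (adjusted p = 0.0440) and ANKRD2 lower (adjusted p = 0.0421), and 8.05% of all genes were called, 4.31% higher and 3.74% lower. With a fold above 2 as a second criterion, as the study used, MYOCD and CASQ2 were both still called, and 1.61% and 1.25% of all genes were higher and lower. The RPKM of the groups did not overlap for 1 tested member that was higher (LMOD1) and 3 that were lower (MYOCD, CASQ2 and TAGLN2), against 6.07% and 5.73% of all tested genes. MYOCD, CASQ2 and ANKRD2 entered the test through their level in ScASCs alone and ACTA1 through that in IPFSCs alone, so that a difference was built into their selection. Both MYOCD and CASQ2 were called as well among genes with a mean RPKM above 1 over all 8 libraries (limma adjusted p = 0.00960 and 0.00837), a filter added after seeing the data. ANKRD2, with a mean of 0.973 RPKM over the 8 libraries, was not tested under that filter.

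**Figure D1:**
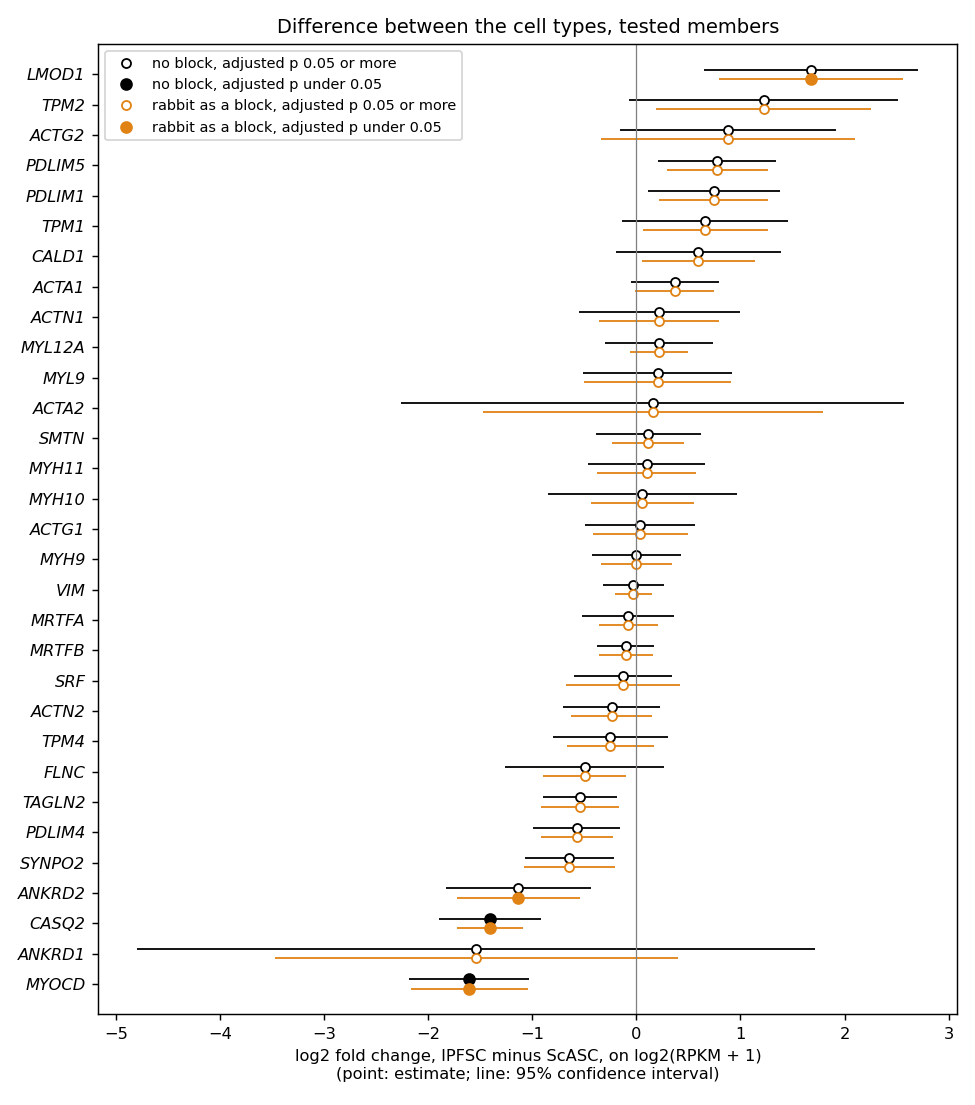
Log2 fold change of the tested members (31 of the 32 drawn) on the log2(RPKM + 1) scale, with IPFSCs over ScASCs on the horizontal axis (points for estimates, lines for 95% confidence intervals), in limma without a block (black) and with the rabbit as a block (orange). Filled points mark an adjusted p under 0.05, reached by MYOCD and CASQ2 in both fits and by LMOD1 and ANKRD2 with the block only. The intervals of ACTA2 (−2.26 to 2.58) and ANKRD1 (−4.79 to 1.72) were the widest.

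Among the regulators, MYOCD (ENSOCUG00000009225) fell in IPFSCs, while SRF and the MRTF genes did not pass the test. Its RPKM was 0.0508, 0.0529, 0.0740 and 0.0516 in the IPFSC libraries of rabbits 1 to 4, against 3.11, 3.61, 0.998 and 1.84 in the ScASC libraries. Every IPFSC library was near 0, and the lowest ScASC library, that of rabbit 3, was still far above them. The log2 fold change was −1.61 (standard error, SE, 0.25, limma adjusted p = 0.00908), lower in 4 of 4 rabbits, and the scale understates it because of the added 1. SRF, the DNA-binding partner, had 12.0, 14.2, 15.5 and 9.70 RPKM in IPFSCs, against 18.8, 13.1, 9.61 and 15.9 RPKM in ScASCs, a log2 fold change of −0.13 (95% confidence interval −0.60 to 0.34, limma adjusted p = 0.873). MRTFA averaged 19.6 ± 4.77 RPKM in IPFSCs, against 20.6 ± 3.97 RPKM in ScASCs, and MRTFB averaged 10.6 ± 0.790 RPKM in IPFSCs, against 11.5 ± 1.89 RPKM in ScASCs (SD, n = 4). The libraries of the 2 cell types overlapped for both coactivators, with log2 fold changes of −0.08 (limma adjusted p = 0.926) and −0.10 (adjusted p = 0.816).

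ANKRD1 and ANKRD2, ankyrin repeat genes of the stretch response in muscle, varied widely between libraries of the same cell type. ANKRD1, also a target of the mechanosensitive coactivator YAP, had 6.17, 36.3, 1.86 and 0.228 RPKM in the IPFSC libraries of rabbits 1 to 4, against 75.3, 52.7, 0.234 and 12.2 RPKM in the ScASC libraries. The highest exceeded the lowest library 159-fold in IPFSCs and 322-fold in ScASCs, and the low library was rabbit 4 in IPFSCs but rabbit 3 in ScASCs. Its log2 fold change of −1.54 (SE 1.43) did not pass the test (limma adjusted p = 0.724), and it lay between −2.77 without ScASC replicate 3 and −0.79 without ScASC replicate 1. ANKRD2 had 0, 0.652, 0.0468 and 0.0978 RPKM in IPFSCs, against 0.620, 2.04, 3.21 and 1.12 RPKM in ScASCs. It was lower in IPFSCs in each of the 4 rabbits, while the groups overlapped slightly because of IPFSC replicate 2 and ScASC replicate 1. The log2 fold change of −1.13 had an adjusted p of 0.0796 in limma, and of 0.0421 with the rabbit as a block. On leaving out single libraries it lay between −1.36, without ScASC replicate 1 (limma adjusted p = 0.0363, the only one under 0.05), and −0.90, without ScASC replicate 3 (adjusted p = 0.145), with adjusted p up to 0.209. ANKRD2 had entered the test through its level in ScASCs.

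The actin genes showed no difference between the cell types that passed the test, and that of α smooth muscle actin varied widely between libraries of the same cell type. ACTA2 (ENSOCUG00000008193) had 912, 1379, 682 and 115 RPKM in the IPFSC libraries of rabbits 1 to 4, against 2269, 1025, 98.2 and 279 RPKM in the ScASC libraries. Rabbits 1 and 2 were high in both cell types and rabbit 4 was low in both, whereas rabbit 3 was at the lowest level of all in ScASCs and at 682 RPKM in IPFSCs. The range was 12.0-fold within IPFSCs and 23.1-fold within ScASCs, and the log2 fold change was 0.16 (95% confidence interval −2.26 to 2.58, limma adjusted p = 0.983). The sign turned on leaving out single libraries, with −0.62 without ScASC replicate 3 and 0.92 without IPFSC replicate 4. ACTG1, the cytoplasmic γ-actin found in all cells, had 985, 1062, 1090.4 and 643 RPKM in IPFSCs, against 1278, 953, 667 and 814 RPKM in ScASCs. Its libraries kept the same order in ScASCs as those of ACTA2 but within a range of only 1.92-fold, and its log2 fold change was 0.04 (95% confidence interval −0.49 to 0.57, limma adjusted p = 0.981).

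ACTG2, the enteric smooth muscle actin, was far less abundant, with 9.35, 17.6, 27.2 and 5.86 RPKM in IPFSCs, against 10.6, 6.18, 3.39 and 7.89 RPKM in ScASCs. IPFSCs were above ScASCs in rabbits 2 and 3 and below them in rabbits 1 and 4, and the log2 fold change of 0.88 (SE 0.46) did not pass the test (limma adjusted p = 0.410). ACTA1, the skeletal muscle actin, lay between 0.758 and 1.90 RPKM in IPFSCs and between 0.587 and 1.10 RPKM in ScASCs. ACTC1, the cardiac form, was above 0 in 1 library of each cell type only. The coding sequences of the actins are closely alike, so that reads may be shared between them, and the low values of ACTA1 and ACTG2 beside ACTA2 are uncertain. Among the cross-linking α-actinins, ACTN1 of stress fibres had 133 ± 45.4 RPKM in IPFSCs, against 114 ± 44.2 RPKM in ScASCs, and ACTN2 of muscle Z-discs had 6.32 ± 1.56 RPKM in IPFSCs, against 7.59 ± 1.72 RPKM in ScASCs (SD, n = 4). Neither passed the test (limma adjusted p = 0.866 and 0.688), and the entries listed as ACTN3 and ACTN4 stayed below an RPKM of 1 in every library. How fully these entries cover their genes was not checked, so the low values need not mean that the genes are silent.

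**Figure D2:**
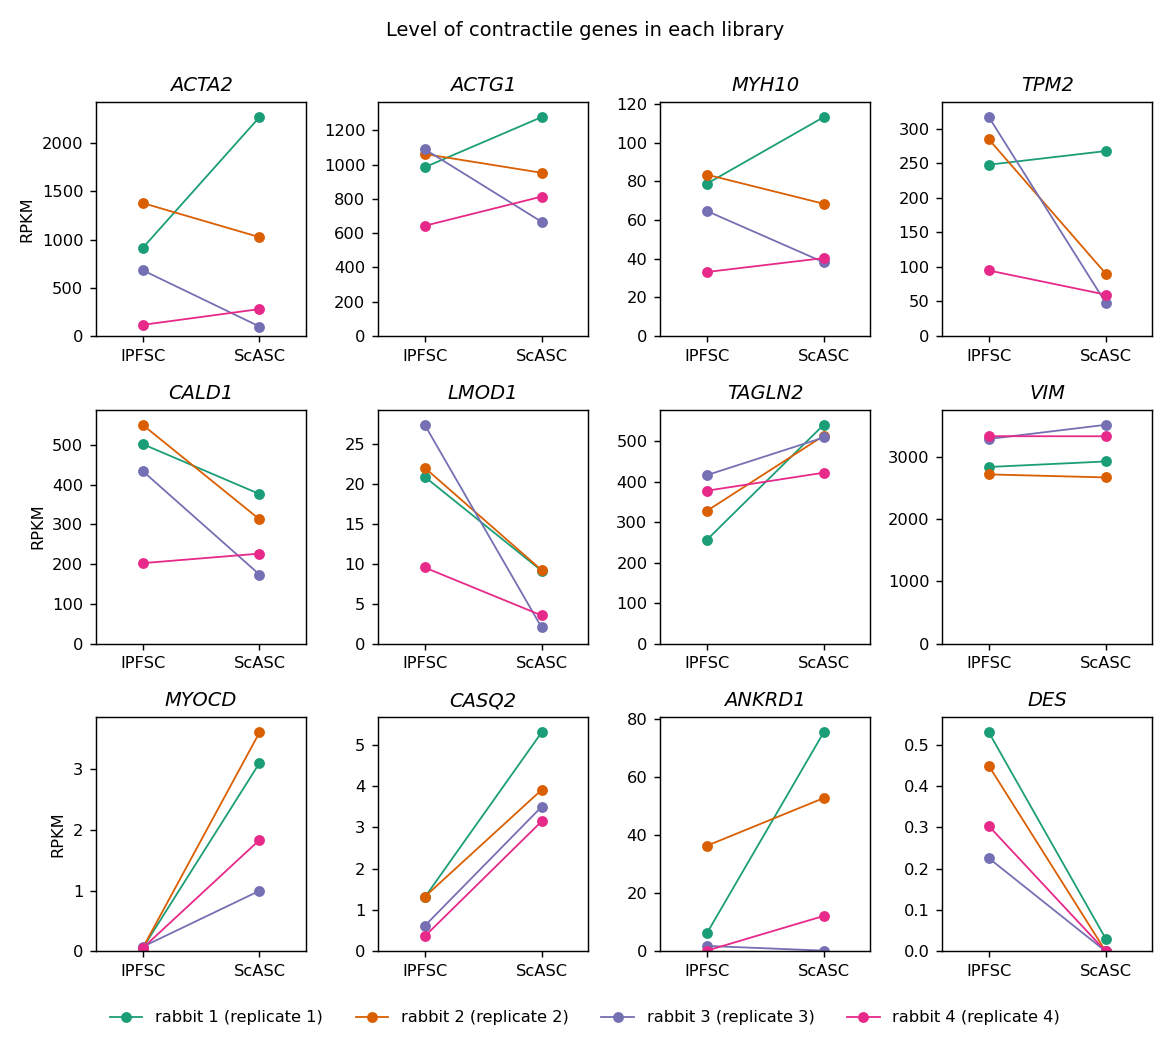
RPKM of 12 members in each library, with IPFSCs left of ScASCs on each panel, points for single libraries and lines joining libraries of the same rabbit; each vertical axis starts at 0 and has its own scale. MYOCD, CASQ2, DES, LMOD1 and TAGLN2 do not overlap between the cell types, whereas the lines of ACTA2, ACTG1 and MYH10 cross, and ACTA2 spans 98.2 to 2269 RPKM within ScASCs.

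Myosin II heavy chains were mainly those of non-muscle cells, at closely similar means in the cell types. MYH9, the main non-muscle heavy chain, had 303, 314, 315 and 206 RPKM in IPFSCs, against 359, 305, 220.0 and 255 RPKM in ScASCs, and the log2 fold change was 0.00 (95% confidence interval −0.43 to 0.43, limma adjusted p = 0.999). MYH10, the second non-muscle chain, had 78.8, 83.6, 64.7 and 33.1 RPKM in IPFSCs, against 113, 68.5, 38.2 and 40.3 RPKM in ScASCs, a log2 fold change of 0.06 (95% confidence interval −0.84 to 0.96, limma adjusted p = 0.983). Both were lowest in rabbit 4 in IPFSCs and in rabbit 3 in ScASCs. MYH11, the smooth muscle heavy chain and the most specific marker of that cell type among the members, averaged only 1.20 ± 0.652 RPKM in IPFSCs, against 1.04 ± 0.505 RPKM in ScASCs (SD, n = 4). It made up 0.199% to 0.539% of the summed RPKM of MYH9, MYH10 and MYH11 in IPFSCs and 0.207% to 0.366% in ScASCs. The regulatory light chains were abundant, with MYL9, the form of smooth muscle and stress fibres, at 380.2, 445, 449 and 197 RPKM in IPFSCs, against 443, 316, 194 and 313 RPKM in ScASCs. MYL12A, its non-muscle counterpart, averaged 156 ± 38.0 RPKM in IPFSCs, against 134 ± 35.4 RPKM in ScASCs (SD, n = 4). The log2 fold changes of MYL9 and MYL12A, 0.20 (limma adjusted p = 0.866) and 0.22 (adjusted p = 0.772), were smaller than the spread between libraries.

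Tropomyosins, which coil along actin filaments, had no member that passed the test, while the shares of TPM1 and TPM4 in their summed level did not overlap between the cell types. TPM2 (ENSOCUG00000010198), which is rich in smooth muscle and stress fibres, had 248, 285, 317 and 94.8 RPKM in IPFSCs, against 268, 90.3, 48.0 and 59.9 RPKM in ScASCs. Only rabbit 1 had a ScASC library at the level of the high IPFSC libraries, and its log2 fold change of 1.22 (SE 0.57) did not pass the test (limma adjusted p = 0.338, 0.0658 to 0.588 over all alternatives). TPM1 had 449.7, 421, 425 and 228 RPKM in IPFSCs, against 413, 269.9, 135 and 193 RPKM in ScASCs, above ScASCs in 4 of 4 rabbits (log2 fold change 0.66, limma adjusted p = 0.421). TPM4, the main short tropomyosin of non-muscle cells among those listed, had 401, 455, 459 and 233 RPKM in IPFSCs, against 592, 476, 366 and 379 RPKM in ScASCs, with a log2 fold change of −0.25 (limma adjusted p = 0.743).

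As a share of the summed RPKM of these 3 genes, TPM4 held 36.5%, 39.2%, 38.2% and 41.9% in the IPFSC libraries of rabbits 1 to 4, against 46.5%, 56.9%, 66.7% and 60.0% in the ScASC libraries. The shares of TPM4 did not overlap between the cell types, nor did those of TPM1, 35.4% to 41.0% in IPFSCs and 24.6% to 32.4% in ScASCs. Those of TPM2, 17.1% to 26.4% in IPFSCs and 8.74% to 21.1% in ScASCs, did overlap. These shares were compared after the values had been seen and were not tested. TPM3 was not found under its symbol and is not part of the sum. As parts of the same sum, the shares of TPM1 and TPM4 depend on each other. RPKM here is per gene, and the several transcripts of each tropomyosin gene are not told apart.

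**Figure D3:**
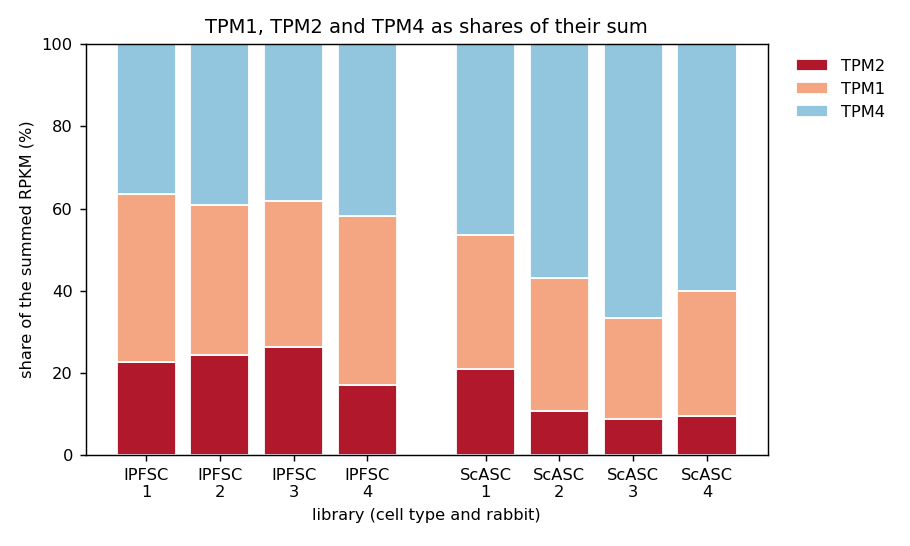
Shares of TPM2, TPM1 and TPM4 in their summed RPKM (vertical axis, in %) in each of the 8 libraries, IPFSCs on the left and ScASCs on the right. TPM4 held 36.5% to 41.9% in IPFSCs and 46.5% to 66.7% in ScASCs.

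Of the genes for proteins that bind thin filaments, LMOD1, the smooth muscle leiomodin that nucleates actin filaments, had the largest positive fold change of all tested members. LMOD1 (ENSOCUG00000007492) had 20.8, 22.0, 27.3 and 9.51 RPKM in IPFSCs, against 9.11, 9.19, 2.04 and 3.53 RPKM in ScASCs. The groups did not overlap, although IPFSC replicate 4 lay just above the highest ScASC libraries. The log2 fold change was 1.68 (SE 0.45, limma adjusted p = 0.0774), higher in 4 of 4 rabbits, and with the rabbit as a block the SE was 0.36 (adjusted p = 0.0440). On leaving out single libraries it lay between 1.34, without ScASC replicate 3 (limma adjusted p = 0.143), and 1.98, without IPFSC replicate 4 (adjusted p = 0.0418, the only one under 0.05), with adjusted p up to 0.205. CALD1, which encodes caldesmon, a brake on myosin at the filament, had 502, 550.4, 434 and 202 RPKM in IPFSCs, against 376, 313, 174 and 226 RPKM in ScASCs, above ScASCs in rabbits 1 to 3 (log2 fold change 0.60, limma adjusted p = 0.477).

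TAGLN2 and SYNPO2 were lower in IPFSCs without passing the test, and SMTN did not pass it either. TAGLN2, the transgelin of non-muscle cells, had 256, 328, 416 and 377 RPKM in IPFSCs, against 540.1, 513, 509 and 422 RPKM in ScASCs. Every IPFSC library was below every ScASC library, with a log2 fold change of −0.54 (SE 0.16, limma adjusted p = 0.0959). SYNPO2, a synaptopodin of muscle and stress fibres, had 14.5, 9.25, 10.01 and 9.89 RPKM in IPFSCs, against 14.9, 13.4, 20.4 and 22.0 RPKM in ScASCs. IPFSC replicate 1 alone reached into the range of ScASCs, and the log2 fold change was −0.64 (SE 0.19, limma adjusted p = 0.105). SMTN, which encodes smoothelin, averaged 14.8 ± 4.30 RPKM in IPFSCs, against 13.4 ± 3.18 RPKM in ScASCs (SD, n = 4, limma adjusted p = 0.904).

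The PDZ and LIM domain adaptors, which tie α-actinin to other proteins, had no member that passed the test. PDLIM5 had 86.1, 81.9, 83.4 and 51.2 RPKM in IPFSCs, against 63.0, 44.9, 28.4 and 41.7 RPKM in ScASCs (log2 fold change 0.78, limma adjusted p = 0.136). PDLIM1 had 191, 199, 162 and 110.0 RPKM in IPFSCs, against 161, 80.9, 68.2 and 95.4 RPKM in ScASCs (log2 fold change 0.75, limma adjusted p = 0.212, 0.0450 without ScASC replicate 1 and up to 0.422 without ScASC replicate 2). PDLIM4 lay the other way, with 12.7, 20.4, 13.1 and 13.2 RPKM in IPFSCs, against 28.2, 24.2, 18.1 and 19.6 RPKM in ScASCs (log2 fold change −0.57, limma adjusted p = 0.136, 0.0458 without IPFSC replicate 2 and up to 0.310 without ScASC replicate 2). Each of these 3 genes had 1 sign in 4 of 4 rabbits. Over all tested members this held for 4 that were higher and 7 that were lower in every rabbit, 12.5% and 21.9% of the 32, against 16.0% and 15.6% of all tested genes. FLNC, the muscle filamin, a large cross-linker that anchors actin to the membrane, had 30.6 ± 11.6 RPKM in IPFSCs, against 43.0 ± 15.6 RPKM in ScASCs (SD, n = 4), below ScASCs in 4 of 4 rabbits, and did not pass the test (log2 fold change −0.50, limma adjusted p = 0.567).

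VIM, the intermediate filament gene of mesenchymal cells, was the most abundant member, and its mean level was nearly the same in both cell types. It had 2836, 2717, 3286 and 3331 RPKM in IPFSCs, against 2925, 2669, 3513 and 3329 RPKM in ScASCs, with a log2 fold change of −0.03 (95% confidence interval −0.32 to 0.26, limma adjusted p = 0.968). Here the high libraries were those of rabbits 3 and 4 in both cell types. DES, the intermediate filament gene of muscle, was listed at 0.529, 0.448, 0.225 and 0.303 RPKM in IPFSCs, against 0.0304, 0, 0 and 0 RPKM in ScASCs. The groups did not overlap, but the level stayed below the limit for testing, and in limma with no filter on low RPKM DES had an adjusted p of 0.0132. The skeletal muscle markers summed to 0.476 to 1.01 RPKM in IPFSCs and 0.376 to 0.830 RPKM in ScASCs, and their part in the level of DES was not tested.

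CASQ2 (ENSOCUG00000010594), the cardiac and slow muscle calsequestrin, was the second member that fell. It had 1.31, 1.32, 0.616 and 0.362 RPKM in IPFSCs, against 5.30, 3.91, 3.50 and 3.15 RPKM in ScASCs. All 4 IPFSC libraries were below all ScASC libraries, and the log2 fold change was −1.40 (SE 0.22, limma adjusted p = 0.00799). CASQ1, the fast muscle form, averaged 0.212 ± 0.0876 RPKM in IPFSCs, against 0.244 ± 0.0223 RPKM in ScASCs (SD, n = 4) and was not tested.

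Most genes of the sarcomere were at or near 0 in both cell types, apart from ACTN2 and ACTA1, given above. In all, 26 members were not tested, of which 23 were below an RPKM of 1 in every library and 4 of these listed at 0 in all 8 (both MYH4 entries, MYL2 and LMOD2). None of the 7 entries for heavy chains of striated muscle (MYH3, MYH4, MYH7, MYH7B, MYH8 and MYH13) exceeded 0.0891 RPKM in any library. The troponins TNNC1, TNNI1 and TNNT3 reached at most 0.398, 0.481 and 1.33 RPKM in IPFSCs, against 0, 0.383 and 0.676 RPKM in ScASCs. Besides TNNT3, MYL4, the atrial light chain, and MYLK3, the cardiac light chain kinase, went above 1 in some library, with at most 1.30 and 1.03 RPKM in IPFSCs, against 1.20 and 0.769 RPKM in ScASCs.

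Across libraries, the members spread widely within each cell type, and many of them had the same high and low libraries. ScASC replicate 1 was the highest ScASC library for 24 of the 32 tested members, against 31.4% of all tested genes, and ScASC replicate 3 was the lowest for 24, against 24.0%. In IPFSCs, replicate 4 was the lowest library for 22 members, against 37.7% of all tested genes, and replicate 2 was the highest for 15, against 32.3%. Of the tested members, 20 (62.5%) had ScASC replicate 1 highest and replicate 3 lowest among ScASCs and replicate 4 lowest among IPFSCs, against 7.82% of all tested genes. ACTA2, ACTN1, MYH9, MYH10, TPM1, TPM2 and CALD1 were among them, and VIM and SYNPO2 were not. The libraries of this joint count were those most often extreme among the members themselves. The choice favours the members, and the contrast with all genes was not tested. The SD within a cell type on the log2(RPKM + 1) scale had a median of 0.39 over the tested members in IPFSCs, against 0.19 over all tested genes, and of 0.39 in ScASCs, against 0.19. Among genes with a mean RPKM above 10 in both cell types the medians were 0.39 for 24 members in IPFSCs, against 0.17 for 6362 genes, and 0.39 in ScASCs, against 0.16. Relative depth was 1.00 and 0.994 in ScASC replicates 1 and 3 and 0.905 in IPFSC replicate 4. The 3 adipocyte markers summed to 21.8 RPKM in ScASC replicate 1 and to 0.860 to 1.21 in the other ScASC libraries, nearly all of it LEP at 21.6, while ADIPOQ and CIDEC were lower there than in the other ScASC libraries, at 0.0971 and 0.133 RPKM. The pericyte markers summed to 104 in ScASC replicate 1 and to 153 to 217 in the others, most of it PDGFRB and ABCC9, while CSPG4 was higher there, at 10.8 RPKM, against 4.86 to 6.93 in the other ScASC libraries. In IPFSC replicate 4 the pericyte markers summed to 210 RPKM, against 129 to 142 in the other IPFSC libraries. Of these markers PDGFRB (98.8 RPKM), ABCC9 (51.6 RPKM) and, near 0, RGS5 were above all other IPFSC libraries there. MCAM, CSPG4, KCNJ8 and NOTCH3 lay within the range of the other IPFSC libraries. The blood and macrophage markers, led by CD68, summed to 27.8 RPKM in IPFSC replicate 4, against 13.4 to 14.6 in the other IPFSC libraries. The part of these cells in the pattern was not tested.

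**Figure D4:**
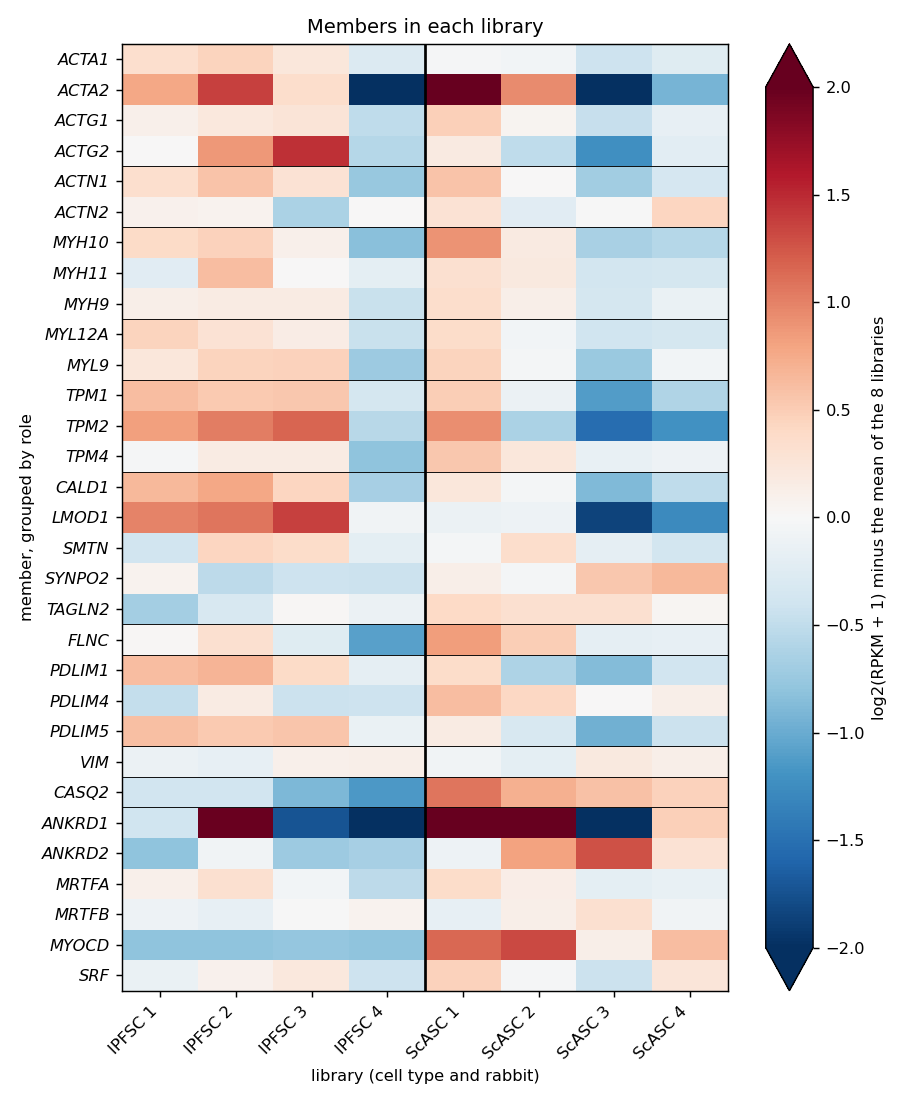
Deviation of log2(RPKM + 1) from the mean of the 8 libraries (colour, red for higher and blue for lower, capped at 2 in either direction) for the tested members in rows (31 of the 32 drawn), grouped by role, with the 4 IPFSC libraries left and the 4 ScASC libraries right of the black line. ScASC replicate 3 was lowest in its cell type for 24 members and IPFSC replicate 4 for 22, and CASQ2 and MYOCD are blue in IPFSCs and red in ScASCs.

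Genes of neighbouring pathways, listed by their known roles, were set beside the members. The lists were chosen with earlier results of these data known, and their shares of called genes were not tested against those of all genes. Of 20 tested genes of the YAP and TEAD pathway, which responds to actin tension, AMOTL1 rose and 19 did not pass the test, 5% of the list against 4.98% of all tested genes (log2 fold change of AMOTL1 0.80, limma adjusted p = 0.00974). With the rabbit as a block SAV1, a scaffold of the Hippo kinases upstream of YAP, was called as well (limma adjusted p = 0.0421). CCN2, a secreted target of YAP, had 2320.5 ± 818 RPKM in IPFSCs, against 811 ± 861 RPKM in ScASCs (SD, n = 4), which gave a log2 fold change of 2.02 (limma adjusted p = 0.157). Without ScASC replicate 1 it was 2.66 (limma adjusted p = 0.0206), and leaving out other libraries gave adjusted p up to 0.330. The median log2 fold change of the list was 0.07. CCN1 had a log2 fold change of 0.54 (limma adjusted p = 0.659) and AXL of −0.02, and neither passed the test. For YAP1 every IPFSC library was below every ScASC library, with −0.29 (limma adjusted p = 0.107). ANKRD1, the YAP target among the members, had −1.54 (limma adjusted p = 0.724).

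The list of 22 tested genes that link stress fibres to adhesions had 4 that rose and 1 that fell, 22.7% of the list against 4.98% of all tested genes. PXN, which encodes the adhesion scaffold paxillin, fell, with 22.6 ± 0.858 RPKM in IPFSCs, against 37.1 ± 2.67 RPKM in ScASCs (SD, n = 4), which gave a log2 fold change of −0.69 (limma adjusted p = 0.00249). FHL1, a LIM domain gene of muscle, had the largest difference of the list, with 32.7 ± 8.79 RPKM in IPFSCs, against 6.99 ± 4.38 RPKM in ScASCs (SD, n = 4), which gave a log2 fold change of 2.22 (limma adjusted p = 0.0178). TLN2, a talin that joins integrins to actin, and LPP, a LIM protein of adhesions, rose by log2 fold changes of 0.74 (limma adjusted p = 0.0128) and 0.55 (adjusted p = 0.0191), and ENAH, which elongates actin filaments, by 1.12 (adjusted p = 0.0239). Leaving out single libraries ended the call for FHL1 (without IPFSC replicate 2 or 3), LPP (without IPFSC replicate 1 or ScASC replicate 2 or 3) and ENAH (without IPFSC replicate 1, 2 or 3 or ScASC replicate 2 or 4), with adjusted p up to 0.0644, 0.0590 and 0.0811 in limma.

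Around CASQ2, the calcium store list had 11 tested genes, with 1 that rose, 1 that fell and 9 that did not pass, 18.2% of the list against 4.98% of all tested genes. CACNA1C, the pore of the L-type calcium channel of heart and smooth muscle, rose, with 5.89 ± 0.530 RPKM in IPFSCs, against 1.84 ± 0.293 RPKM in ScASCs (SD, n = 4), which gave a log2 fold change of 1.28 (limma adjusted p = 8.42e-04). ITPR2, a calcium release channel of the endoplasmic reticulum, fell, with 7.12 ± 0.264 RPKM in IPFSCs, against 10.8 ± 0.665 RPKM in ScASCs (SD, n = 4), which gave a log2 fold change of −0.54 (limma adjusted p = 0.00770). RYR1, RYR2 and RYR3, the ryanodine receptors that work with calsequestrin in muscle, stayed below an RPKM of 1 on average in both cell types, and TRDN, which encodes triadin, their link to calsequestrin, was listed at 0 in all libraries.

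**Figure D5:**
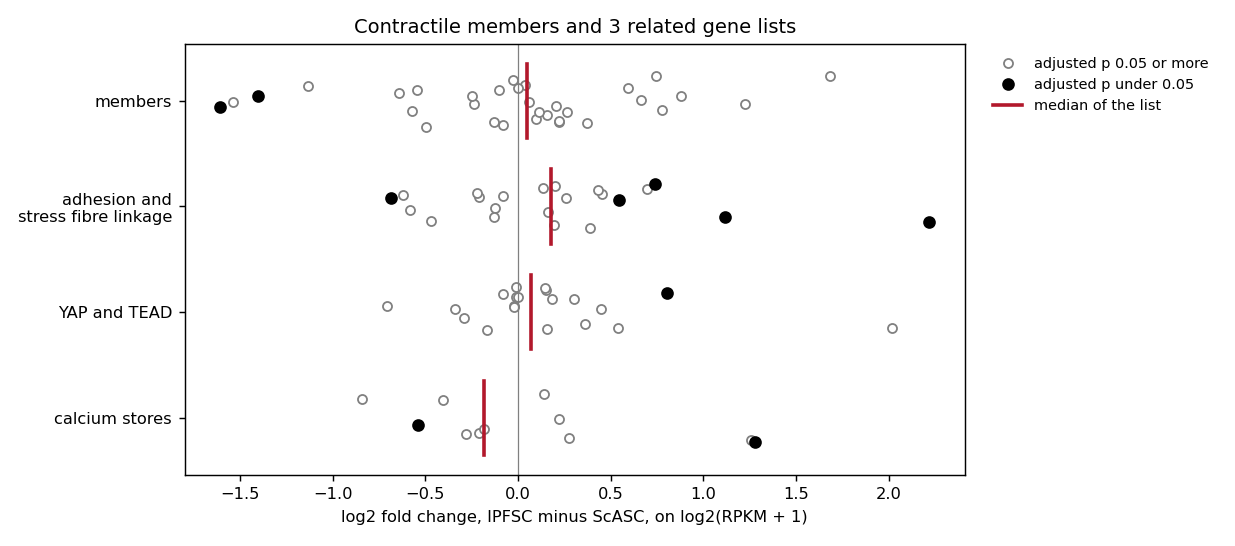
Log2 fold changes of log2(RPKM + 1), IPFSCs over ScASCs, of the tested members and of 3 lists of related genes (rows), with 1 point per gene, filled where the adjusted p in limma was under 0.05, and a red line at the median of each row. The members centre on 0.05 with 2 filled points, both on the left, and the adhesion and stress fibre list has 5, of which FHL1 lies farthest right at 2.22.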

How the data were processed

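RNA of IPFSCs and ScASCs (4 libraries each) was sequenced after poly(A) selection with a stranded kit. The authors aligned the reads to OryCun2.0 with Subread, counted them per Ensembl gene with featureCounts and scaled them to RPKM, and the deposited values are log2(RPKM + 1), in which 1e-05 stands for an RPKM of 0. The log2 scale was settled from the values. Versions of the alignment and counting tools and the strand setting are not given in the sources used here, so overlapping genes are uncertain. Deposited fold changes and p-values of the study were not used.

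Groups were taken from the sample labels. Since no counts were at hand, limma 3.58.1 (R 4.3.3) was fitted with cell type only and a variance trend over the 11294 genes whose RPKM averaged above 1 in 1 cell type or both, two-sided, with Benjamini-Hochberg adjustment over all of them and a call at an adjusted p under 0.05. It was tested on simulated data. Correlations of the deviations from the group means were 0.534, 0.55, 0.253 and 0.659 for libraries of rabbits 1 to 4, so the numbers were taken to pair them, although ScASC replicate 3 correlated more with IPFSC replicate 4 (0.329). The members and lists were chosen with earlier results of these data known. A member and a related gene list are not reported here, although the member stays in the counts. The other members are named or counted, the genes of the other lists where they were called in some fit or central to the pathway. Alternatives were a pseudocount of 0.1 or 0.5, no filter or one at 5 RPKM, median-ratio scaling, no trend, the rabbit block, a fold of 2 as an added criterion and leaving out each library.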

Additional observations from a re-analysis of the deposited data

Results flagged for a closer look

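In 64 groups of 4 libraries (32 tested members in 2 cell types), 7 (6 of them given here) had 1 library far from the other 3 by Dixon's criterion, and chance gives about 1 in 20. Many members share their high and low libraries, so the groups are not independent. The rate therefore cannot show whether 7 is an excess. IPFSC replicate 4 was the low library for PDLIM5 with 51.2 RPKM against 81.9 to 86.1 in the other IPFSC libraries, TPM1 with 228 against 421 to 450 and MYH9 with 206 against 303 to 315. In IPFSC replicate 3, ACTN2 was low at 4.00 RPKM, against 6.81 to 7.30 in the others. MYOCD was highest there at 0.0740 RPKM, against 0.0508 to 0.0529, all near 0. At that level values rest on few reads and move in steps, so this flag says little about the library. PDLIM4 was high in IPFSC replicate 2 at 20.3 RPKM, against 12.7 to 13.2 in the others.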

How the results depend on the processing

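Outside the settings that leave out a library, 248 of 250 fold changes of members kept their sign and their side of the threshold, and the other 2 (LMOD1 and ANKRD2) passed with the rabbit block. The median over all genes moved by less than 0.1 under every scaling. The members that were higher numbered 0, but 1 with no filter (DES), 1 with the rabbit block (LMOD1) and 0 to 1 on leaving out single libraries. Those that were lower numbered 2, but 0 with a filter at 5 RPKM, which removed both MYOCD and CASQ2, 3 with the block and 2 to 3 on leaving out libraries. The adhesion list had 5, but 2 with a fold above 2 as well and 3 to 5 on leaving out libraries. The YAP list had 1, but 2 with the block, 0 with a fold above 2 as well and 1 to 2 on leaving out libraries, and the calcium store list had 2, but 1 with a fold above 2 and 2 to 3 on leaving out libraries. Where not said otherwise, the cause was not tested.

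Leaving out single libraries turned the sign of 10 members that were not called, with log2 fold changes from −0.62 to 0.92 for ACTA2, −0.15 to 0.37 for MYH10, −0.11 to 0.21 for ACTG1, −0.11 to 0.15 for MYH9, −0.089 to 0.22 for MYH11, −0.0098 to 0.48 for MYL9, −0.0087 to 0.26 for SMTN, −0.10 to 0.033 for VIM, −0.20 to 0.081 for MRTFA and −0.29 to 0.0050 for SRF. For 11 other uncalled members the fold change kept its sign but moved by over 1.5 times, among them ANKRD1 (−2.77 to −0.79), ACTG2 (0.54 to 1.22), TPM1 (0.40 to 0.94), CALD1 (0.40 to 0.92), ACTN1 (0.03 to 0.51), FLNC (−0.69 to −0.22) and TPM4 (−0.35 to −0.02). MYOCD and CASQ2 were called in all 15 alternatives in which they were fitted, with adjusted p of 0.00223 to 0.0313 and 0.00357 to 0.0310 in limma, and MYOCD had log2 fold changes of −2.27 and −3.84 with pseudocounts of 0.5 and 0.1. With 4 rabbits, a wide spread and no read totals, differences of the size of the intervals given could not be detected, and low RPKM rest on few reads.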

Other observations

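The balance between related genes also varied by library. ACTA2 over ACTG1, a ratio of RPKM, was 0.926, 1.30, 0.626 and 0.179 in the IPFSC libraries of rabbits 1 to 4, against 1.78, 1.08, 0.147 and 0.343 in the ScASC libraries. MYH9 over MYH10 was 3.85, 3.76, 4.86 and 6.23 in IPFSCs, against 3.17, 4.46, 5.76 and 6.33 in ScASCs, highest in rabbit 4 and next highest in rabbit 3 in both cell types. TPM2 over TPM4 was 0.618, 0.625, 0.690 and 0.407 in IPFSCs, against 0.453, 0.190, 0.131 and 0.158 in ScASCs, above ScASCs in each rabbit. These ratios were computed after the values had been seen and were not tested. Another gene of the calcium store list, JPH1, which ties the store to the cell membrane in muscle, passed the test only without IPFSC replicate 4 (log2 fold change 1.60, adjusted p = 0.0124 in limma, up to 0.232 without other libraries). JPH1 entered the test through its level in IPFSCs alone, 2.40 ± 1.74 RPKM, against 0.292 ± 0.224 RPKM in ScASCs (SD, n = 4).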
